A study of Mus musculus with 2 samples.

Results

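The genes described here encode the initiation and elongation factors of cytosolic protein synthesis, with the kinases and binding proteins named after them. They were chosen by symbol, as the rows of both count tables that begin with Eif1 to Eif6 or with Eef1 or Eef2, leaving out Eif2s3x and Eif2s3y, which encode the gamma subunit of eIF2. This gave 62 genes of the 32531 gene symbols in the tables. The rule itself uses no measured value, though it was set with earlier results of these data known. All 62 symbols were found in the GENCODE vM21 annotation (GRCm38).

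The RNA came from the dentate gyrus of adult, untreated mice carrying the Lypd1-TRAP transgene (OI82). There an EGFP-Rpl10a fusion, a tagged ribosomal protein, is driven by Lypd1 regulatory sequence, so tagged polysomes come from whichever cells of the region use that sequence. Antibodies to EGFP captured these polysomes, and both libraries, replicate 2 and replicate 1, are captures of this 1 group. Lypd1 itself stood at 194 counts per 1000000 counts on gene lines (CPM) in replicate 2 and 265 CPM in replicate 1. The labels do not say whether they came from separate animals or pools, so the spread between them may be technical. Counts on genes came to 32711412 in replicate 2 and 31309643 in replicate 1. An input library and an untagged control were not analysed here, so every value is a level within the purified RNA, and fewer cells of a type and less RNA per cell cannot be told apart.

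Translation of most messages begins when eIF4E binds the 5′ cap, eIF4G bridges it to the helicase eIF4A and to eIF3 on the small ribosomal subunit, and eIF2 brings the initiator tRNA. Phosphorylation of the alpha subunit of eIF2 by stress kinases slows initiation, while the eIF4E-binding proteins compete with eIF4G for the cap-binding protein until mTOR signalling releases them. In elongation eEF1A delivers each aminoacyl-tRNA and eEF2 moves the ribosome on by a codon. In neurons these steps are known as points at which synaptic activity acts on local protein synthesis.

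The libraries were checked once against cell markers. All 6 granule cell markers were detected, with a summed level of 3506 CPM in both libraries. The 5 microglial markers summed to 1.90 CPM in replicate 2 and 2.11 CPM in replicate 1, and among them the complement genes C1qa and C1qb had no counts. The 5 oligodendrocyte markers summed to 136 and 179 CPM, the 5 astrocyte markers to 58.6 and 50.5 CPM and the 4 endothelial markers to 15.2 and 16.2 CPM, in replicates 2 and 1 in that order. The 6 GABAergic markers summed to 121 CPM in replicate 2 and 73.8 CPM in replicate 1. Most of this sum came from Gad1 (75.57 CPM in replicate 2 and 50.02 CPM in replicate 1) and Gad2 (42.83 and 19.67 CPM), both higher in replicate 2. Slc32a1, at 0.367 and 0.703 CPM, and Sst, at 2.17 and 3.16 CPM, were higher in replicate 1. Pvalb and Vip had 10 counts or fewer in each library. The part of these cells in the differences between the libraries given further on was not tested.

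Several factor genes have close copies, and the letters show how close. The first set compares the coding sequences of the eEF1A genes Eef1a1 and Eef1a2 with Gm13456, a processed pseudogene of Eef1a1, over the 90 coding bases centred on the longest run that Eef1a1 and Eef1a2 share. It is shown because the level of Eef1a1 rests on reads that can be told from such copies. Capitals mark bases that differ from Eef1a1. The sequences are from the GENCODE vM21 transcripts (GRCm38), 5′ to 3′ on the transcript's strand, and begin at coding base 270 of both genes.
Eef1a1 (chromosome 9): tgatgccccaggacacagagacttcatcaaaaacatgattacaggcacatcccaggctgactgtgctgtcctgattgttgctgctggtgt
Eef1a2 (chromosome 2): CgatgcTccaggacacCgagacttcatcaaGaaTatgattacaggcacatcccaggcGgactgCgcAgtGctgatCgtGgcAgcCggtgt
Gm13456 (chromosome 2): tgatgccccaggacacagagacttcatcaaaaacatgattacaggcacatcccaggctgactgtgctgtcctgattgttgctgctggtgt

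The next set shows the eIF4A genes in the same way, with the pseudogene Eif4a-ps4, from coding base 173 of Eif4a1 and 179 of Eif4a2. Capitals mark bases that differ from Eif4a1.
Eif4a1 (chromosome 11): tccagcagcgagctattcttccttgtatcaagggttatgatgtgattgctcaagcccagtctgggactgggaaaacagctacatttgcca
Eif4a2 (chromosome 16): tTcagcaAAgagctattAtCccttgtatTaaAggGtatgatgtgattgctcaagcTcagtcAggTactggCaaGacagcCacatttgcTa
Eif4a-ps4 (chromosome 1): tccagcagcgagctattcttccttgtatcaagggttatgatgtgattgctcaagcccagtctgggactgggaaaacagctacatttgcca

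The paralogues were easy to tell apart, and the processed copies were not. Eef1a2 differed from Eef1a1 at 13 of the 90 bases shown and Eif4a2 from Eif4a1 at 15, while both pseudogenes differed at 0. Over the aligned coding sequence Eef1a1 and Eef1a2 were 80.1% identical, with no identical run over 23 bases. Eif4a1 and Eif4a2 were 78.1% identical, with no run over 20 bases. Gm13456 was 98.6% identical to Eef1a1 with a run of 301 bases, and Eif4a-ps4 matched Eif4a1 at 1217 of 1218 bases. Reads that align equally well to a gene and its copy fall into the class of reads with more than 1 alignment, which took a share of 15.5% in replicate 2 and 15.7% in replicate 1.

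For each gene the longest protein-coding transcript was then cut into all its 50-base words (50-mers). These were looked up, on both strands, in the transcripts of every other annotated gene. In 13 of the 62 genes at least 20% of 50-mers were found elsewhere, and in 19 none was. The share was 91.8% for Eif3j2, 65.5% for Eif4ebp3, 65.3% for Eif4a1, 64.3% for Eef1g, 60.6% for Eef1a1, 54.8% for Eif3j1 and 40.0% for Eif3m. Levels of these genes are uncertain, since reads shared with a copy may not be counted for them. Eif3j1 and Eif3j2 each share more 50-mers with the other than with any other gene, ahead of Spg11, so their reads may be split or lost. In 10 genes at least 10% of exon bases lay under exons of another gene. The share was highest for Eif4ebp3 (67.3%, under a gene on its own strand) and Eif3d (43.3%). Eef2kmt (23.0%), Eif3j1 (20.2%), Eif5b (16.8%), Eif4a2 (13.3%) and Eif2ak1 (11.6%) were also among them. The strand setting of the counting is not given in the sources used here. Where a partner lies on the other strand, its reads can therefore not be told apart.

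Almost the whole family was present in the purified RNA, at levels from 1269 CPM for Eif4g2 in replicate 2 down to 0. The threshold for detection was 1 CPM, required of each library, which 58 of the 62 genes reached (93.5%), against 38.1% of all gene symbols. The family took 0.919% of all gene counts in replicate 2 and 0.803% in replicate 1. Its median was 63.2 CPM in replicate 2 and 67.3 CPM in replicate 1. On average 26 genes stood at 100 CPM or more, which is 44.8% of the detected members, against 17.9% of all detected genes. Between genes, levels are compared only as CPM per kilobase (kb) of annotated exon, since longer transcripts give more reads. On that scale 28 of the 62 lay in the top 10% of all genes with a length. The 4 genes not detected were Eif4e1b, Eif4ebp1, Eif4ebp3 and Eif2ak2.

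**Figure D1:**
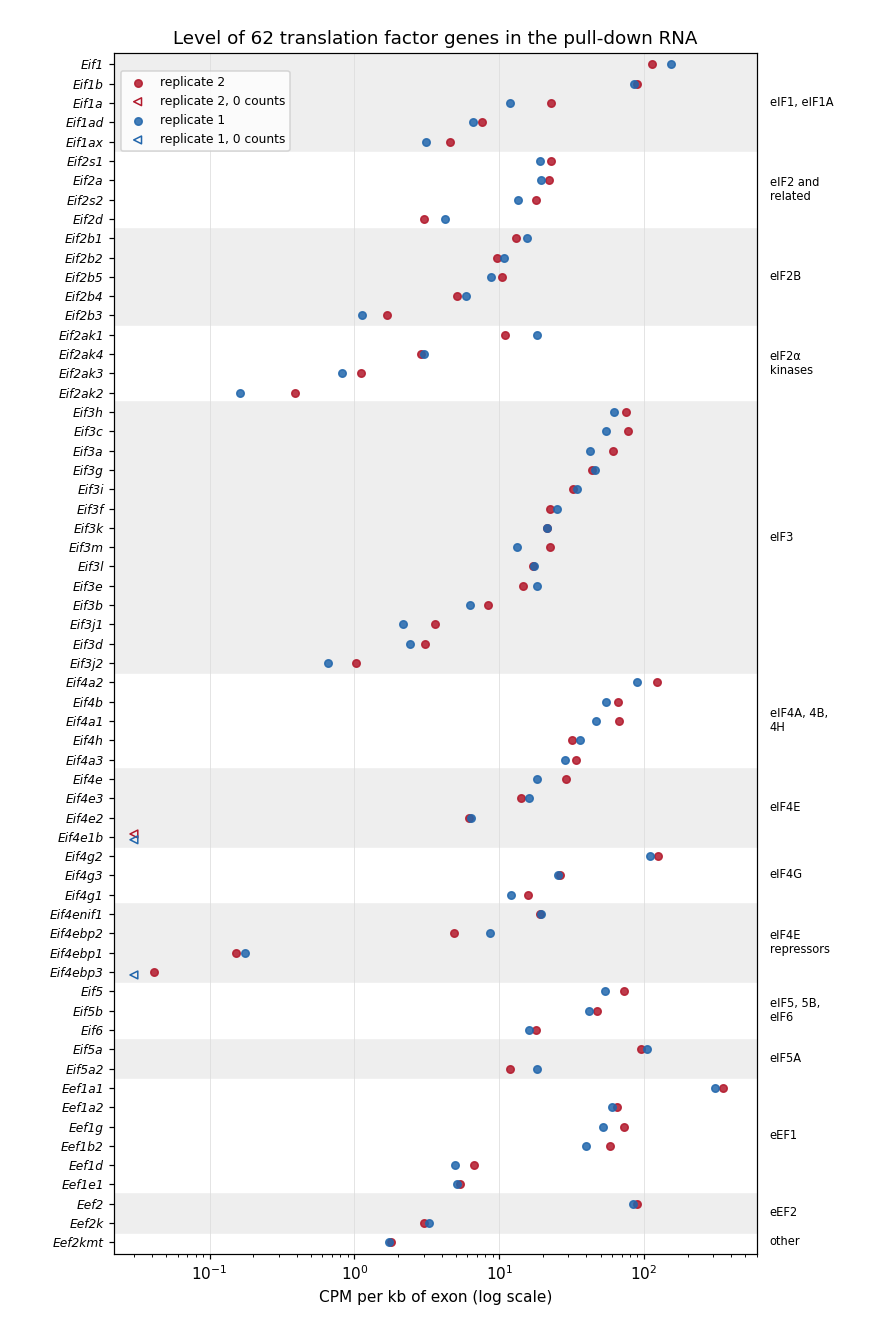
Level of each of the 62 genes in CPM per kb of exon (log scale), ordered by role and then by level; red points are replicate 2, blue points replicate 1 and open triangles at the left edge a library with 0 counts. Eef1a1 stands highest at 350 and 310 CPM per kb, and the 14 eIF3 genes run from 1.03 and 0.658 for Eif3j2 to 74.6 and 62.2 for Eif3h.

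The counts were concentrated in a few genes. Eif4g2 alone held 13.8% of the family's counts in replicate 2 and 13.9% in replicate 1. The 10 genes with most counts held 58.9% and 57.6%. Per kb the order began with Eef1a1 (330 ± 28.2 CPM per kb, SD, n = 2), Eif1 (134 ± 28.0), Eif4g2 (117 ± 10.5), Eif4a2 (106 ± 23.8) and Eif5a (100.2 ± 7.28). Eef1a1 and Eif5a did not overlap the next gene in this order, but Eif1, Eif4g2 and Eif4a2 did. Of the 61 neighbouring pairs in the whole order, 47 had overlapping ranges over the 2 libraries, so on this measure the order of most neighbours is uncertain. The ranges are not paired by library, and some such pairs kept their order in both, as Eif4g2 did over Eif4a2.

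Among the start codon factors, Eif1 and Eif1b, which encode forms of the protein that guards start codon choice, were high. Eif1 (chromosome 11, 100319885 to 100322096, plus strand) stood at 114 CPM per kb in replicate 2 and 153 in replicate 1. Eif1b stood at 88.6 and 85.6. The eIF1A genes, whose product works beside eIF1, were lower. Eif1a was at 22.9 CPM per kb in replicate 2 and 11.9 in replicate 1, Eif1ad, named for a related domain, at 7.64 and 6.58, and the X-linked Eif1ax at 4.55 and 3.11, the lowest of this group. Eif1 was thus lower in replicate 2, while both eIF1A genes were higher there.

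The alpha and beta subunits of eIF2, which carries the initiator tRNA, were close in level per kb of annotated exon. Eif2s1, the alpha subunit that the stress kinases phosphorylate, was at 22.7 CPM per kb in replicate 2 and 19.0 in replicate 1. Eif2s2 was at 17.9 and 13.4. Eif2a, a separate factor able to deliver initiator tRNA, was at 22.1 and 19.4, and Eif2d, named for the same ability, was lowest at 3.01 and 4.21. Per kb of the longest protein-coding transcript the means were 55.2 for Eif2a, 41.6 for Eif2s2, 30.3 for Eif2s1 and 8.03 for Eif2d. The order of the first 3 thus depends on the length used, and Eif2s2 shares 27.8% of its 50-mers with a pseudogene. The 5 genes of eIF2B, the complex that reloads eIF2 with GTP, ran from Eif2b3 at 1.67 and 1.12 CPM per kb to Eif2b1 at 13.1 and 15.6. The highest was 7.82 times the lowest in replicate 2 and 13.9 times in replicate 1.

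Of the 4 eIF2 alpha kinases, Eif2ak1 was the most abundant per kb. Eif2ak1, the heme-regulated kinase (chromosome 5, 143817788 to 143904251, plus strand), had 10.9 CPM per kb in replicate 2 and 18.3 in replicate 1. Eif2ak4, the amino acid sensor GCN2, had 2.90 and 3.04. Eif2ak3, the endoplasmic reticulum stress kinase PERK, had 1.11 and 0.822. Eif2ak2, the double-stranded RNA sensor PKR, stood near the detection limit, at 1.99 CPM in replicate 2 (65 counts) and 0.830 CPM in replicate 1 (26 counts). Per kb Eif2ak1 was 3.76 times Eif2ak4 in replicate 2 and 6.01 times in replicate 1. Eif2ak1 overlaps Aimp2 and Ankrd61 on the other strand.

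All 14 genes of eIF3, the scaffold that recruits the small subunit to the message, were detected. Per kb of annotated exon the most abundant by mean were Eif3h (74.6 CPM per kb in replicate 2 and 62.2 in replicate 1), Eif3c (77.7 and 54.5) and Eif3a (61.0 and 42.3). Levels were uneven for subunits of 1 complex. Eif3d, which can itself bind the cap of some messages, was at 3.08 and 2.42. Its level is uncertain, since 43.3% of its exon bases lie under Gm17638 on the other strand. Without the copies Eif3j1 and Eif3j2, the highest of 12 subunits was 25.2 times the lowest in replicate 2 and 25.7 times in replicate 1. By mean the other 9 subunits, Eif3b, Eif3e, Eif3f, Eif3g, Eif3i, Eif3j1, Eif3k, Eif3l and Eif3m, lay between, from Eif3j1 at 3.57 and 2.18 to Eif3g at 43.5 and 45.5. The lowest of all 14 was Eif3j2, a near copy of Eif3j1, at 1.03 and 0.658. Per kb of the longest protein-coding transcript the order changed, with Eif3i highest at a mean of 110 CPM per kb. On that length Eif3a had 87.9, Eif3h 85.1, Eif3g 80.2 and Eif3c 68.6. Eif3d stayed the lowest of the 12, at 7.19. The order and the size of the spread thus depend on the length used.

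The helicase eIF4A unwinds the leader of a message with the help of eIF4B and eIF4H. Eif4a2 (chromosome 16, 23107444 to 23114136, plus strand) had 123 CPM per kb in replicate 2 and 89.3 in replicate 1. Eif4a1 (chromosome 11, 69666936 to 69672423, minus strand) had 66.6 and 46.6. The ratio of Eif4a2 to Eif4a1 was steady, at 1.84 in replicate 2 and 1.91 in replicate 1. It depends on how shared sequence is treated. With all counts kept and only 50-mers found in no other gene taken as length, the ratio was 0.597, with Eif4a1 above Eif4a2. That setting treats reads in shared sequence as if none had been counted, and no reads were recounted. Which of the pair is the more abundant can therefore not be told from these counts. Eif4b stood at 66.4 and 54.7 and Eif4h at 31.6 and 36.3. The lowest of the group by mean was Eif4a3, the helicase of the exon junction complex, at 34.1 and 28.4.

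The scaffold family was led by Eif4g2, which encodes DAP5, a relative of eIF4G that lacks the eIF4E-binding part. Eif4g2 (chromosome 7, 111067750 to 111083030, minus strand) had 1269 CPM in replicate 2 and 1118 CPM in replicate 1, rank 60 of all genes. Per kb it was at 125 in replicate 2 and 110 in replicate 1, against 26.3 and 25.3 for Eif4g3 and 15.7 and 12 for Eif4g1. Eif4g2 was 7.96 times Eif4g1 in replicate 2 and 9.14 times in replicate 1. Eif4g3 was 1.68 and 2.10 times Eif4g1. Almost none of the sequence of these 3 genes is shared. With 50-mers in no other gene taken as length, both orders kept their direction, at 8.38 and 1.96 times.

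Of the cap-binding genes, Eif4e (chromosome 3, 138526179 to 138559696, plus strand) was the highest, with 28.7 CPM per kb in replicate 2 and 18.3 in replicate 1. Eif4e3 had 14.2 and 16.1, and Eif4e2, a cap-binding protein that represses its messages, 6.17 and 6.43. Eif4e1b, known as a form of the oocyte, had 0 counts in both libraries, which allows up to 0.0917 CPM in replicate 2 and 0.0958 CPM in replicate 1.

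The repressors of eIF4E were represented by 1 of the 3 binding-protein genes. Eif4ebp2, known as the main such repressor in the brain (chromosome 10, 61428491 to 61452661, minus strand), had 4.90 CPM per kb in replicate 2 and 8.58 in replicate 1. Eif4ebp1 had 11 counts in replicate 2 and 12 in replicate 1, and Eif4ebp3 had 1 and 0. Per kb Eif4ebp2 was 32.0 times Eif4ebp1 in replicate 2 and 49.1 times in replicate 1, and without length it was 104 times on average. Eif4enif1, which encodes the eIF4E transporter 4E-T, was the highest of this group at 19.1 and 19.4.

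Factors that act when the subunits join were well represented. Eif5, whose product makes eIF2 hydrolyse its GTP, had 73.0 CPM per kb in replicate 2 and 53.4 in replicate 1. Eif5b, the GTPase of subunit joining, had 47.4 and 41.3. Eif6, which keeps free large subunits apart from small ones, was lowest at 18.0 and 16.0. Eif5a, whose product carries the modified amino acid hypusine and helps the ribosome past difficult stretches, had 95 and 105 CPM per kb. Its paralogue Eif5a2 had 11.8 and 18.3, so Eif5a was 8.07 times Eif5a2 in replicate 2 and 5.74 times in replicate 1. The mean ratio of Eif5a2 to Eif5a, 0.147, was 0.0888 by longest transcript, 0.0804 with unshared 50-mers as length and 0.311 without length. Its size thus depends on the length used, while Eif5a was higher under each.

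Both eEF1A genes were abundant. Eef1a1 (chromosome 9, 78478449 to 78489151, minus strand) is the widely used form and Eef1a2 (chromosome 2, 181147653 to 181157014, minus strand) is known as the form that takes over in mature neurons and muscle. Eef1a1 had 350 CPM per kb in replicate 2 and 310 in replicate 1, while Eef1a2 had 65.1 and 60.0. Eef1a1 was 5.38 times Eef1a2 in replicate 2 and 5.17 times in replicate 1. Eef1a2 shares no 50-mer with another gene, while Eef1a1 shares most of its own. With all counts kept and only 50-mers found in no other gene taken as length, the level of Eef1a2 was 0.0536 times that of Eef1a1.

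The exchange factor that recharges eEF1A had uneven subunit levels. Eef1g had 72.4 CPM per kb in replicate 2 and 51.9 in replicate 1, Eef1b2 58.1 and 39.8, and Eef1d 6.68 and 4.97. Per kb of the longest protein-coding transcript their means were 86.7, 63.9 and 13.3 in the same order. Eef1e1, at 5.40 and 5.09, was the lowest gene named for the complex by mean, and Eef1d was the lowest in replicate 1. Eef1e1 is also known as a part of the complex of aminoacyl-tRNA synthetases. Eef2 had 88.6 CPM per kb in replicate 2 and 83.4 in replicate 1, and its inhibitory kinase Eef2k, which is activated by calcium and calmodulin, had 3.02 and 3.26. Eef2kmt, which methylates eEF2, stood at 4.80 and 4.66 CPM.

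**Figure D2:**
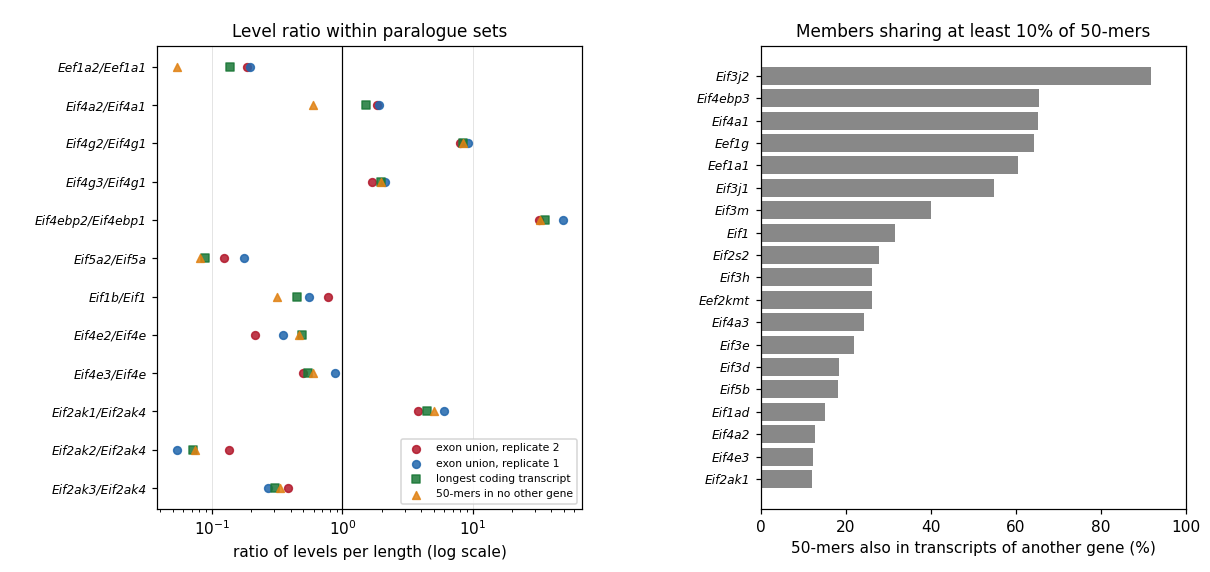
Left, ratio of levels per length within 12 paralogue pairs (log scale), in replicate 2 and replicate 1 with the union of exons as length, and averaged over both libraries with 2 other lengths; right, percent of 50-mers also found in transcripts of another gene, for members with at least 10%. The pair Eif4a2 and Eif4a1 is the one whose points fall on both sides of 1, at 1.84 and 1.91 against 0.597.

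The libraries ranked the family alike, with differences that exceeded counting error for most genes. Across the 62 genes, which are not independent replicates, log2(CPM + 1) in the libraries had a Pearson's r of 0.988. The comparison below is the log2 ratio of replicate 2 to replicate 1 on TMM-scaled counts, with an exact 95% counting interval (Clopper-Pearson). With 1 group of 2 libraries there is no test between conditions, and the ratios describe these libraries only. Of the 59 genes averaging 1 CPM or more, 44 had a ratio above 0 (74.6%), against 49.2% of all genes at that level. Their median log2 ratio was 0.28, against -0.01 for all genes.

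**Figure D3:**
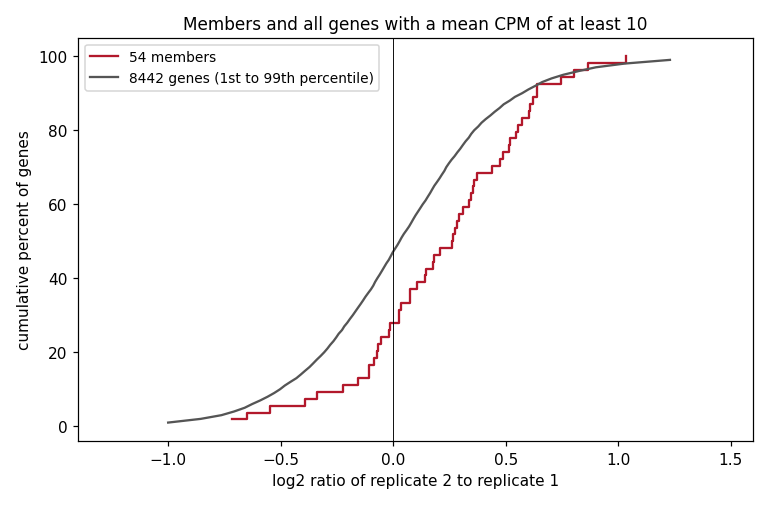
Cumulative percent of genes by log2 ratio of replicate 2 to replicate 1, for the 54 members (red) and all 8442 genes (grey) averaging 10 CPM or more. The members' curve lies to the right over most of its length, with a median of 0.26 against 0.03 for all genes.

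Most members differed by less than 1.5-fold. Of the 54 averaging 10 CPM or more, 43 did. At least 1.5-fold higher in replicate 2 were 9 genes, which is 16.7% against 9.44% of all genes, and 2 were at least 1.5-fold lower, which is 3.70% against 7.12%. Scaling moved these counts for members and all genes together. With library totals alone 4 members were higher and 3 lower, against 6.53% and 10.5% of all genes, whose median was then -0.10. The members' median exceeded that of all genes by 0.28 under both scalings. Scaling shifts all genes by nearly the same amount, so this offset could hardly change and the comparison is no check of it. With a linear dependence on GC content and exon length removed, 7 members were higher and 3 lower, against 8.29% and 6.20% of all genes. Across the 54 genes the log2 ratio had a weak negative relation to the GC content of the transcript (Pearson's r = -0.31, Spearman's rho = -0.34). Over 8026 genes with an annotated length the values were -0.25 and -0.27. These points share the same 2 libraries.

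Among members averaging 10 CPM or more, the 5 with the largest ratios towards replicate 2 were Eif1a, Eif3m, Eif3j1, Eif4e and Eif1ax. Eif1a stood at 95.5 CPM in replicate 2 against 49.7 CPM in replicate 1 (log2 ratio 1.04, interval 0.95 to 1.12). It was the 1 member at least 2-fold higher, where 2.18% of all genes were. Eif3m, an eIF3 subunit, was at 58.4 and 34.1 CPM (0.87, 0.76 to 0.98), and Eif3j1 at 20.8 and 12.7 CPM (0.80, 0.62 to 0.99). Eif4e was at 173 and 110 CPM (0.74, 0.68 to 0.81) and Eif1ax at 24 and 16.4 CPM (0.64, 0.48 to 0.80). The other 4 past 1.5-fold were Eef1b2, Eif3a, Eif3c and Eif4a1, with log2 ratios of 0.64, 0.62, 0.60 and 0.61. Below 10 CPM, Eif2ak2 had a larger ratio (1.29), with a counting interval of 0.67 to 2.07. Eif3m, Eif3j1 and Eif4a1 are among the genes with many shared 50-mers.

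Towards replicate 1 the largest ratios were those of Eif4ebp2 and Eif2ak1. Other regulators averaging 1 CPM or more did not share this direction or lay near 0. Their log2 ratios were 1.29 for Eif2ak2, 0.52 for Eif2ak3, 0.03 for Eif2ak4, 0.07 for Eif4enif1 and -0.02 for Eef2k. Eif4ebp2 stood at 28.3 CPM in replicate 2 against 49.6 CPM in replicate 1 (log2 ratio -0.71, interval -0.83 to -0.60), and Eif2ak1 at 61.9 and 104 CPM (-0.65, -0.73 to -0.57). Next were Eif5a2 at 59.2 and 92.1 CPM (-0.55), Eif2d at 22.2 and 31.1 CPM (-0.39) and Eif1 at 239 and 322 CPM (-0.34). Of the 54 members 0 were at least 2-fold lower in replicate 2, where 1.01% of all genes were. The cap-binding factor Eif4e, at 0.74, and its repressor Eif4ebp2 lay towards opposite ends of this order, a pairing picked after the values were seen. Of the other cap-binding genes, Eif4e2 lay at 0.03 and Eif4e3 at -0.08. Per kb, Eif4e was 5.86 times Eif4ebp2 in replicate 2 and 2.13 times in replicate 1.

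**Figure D4:**
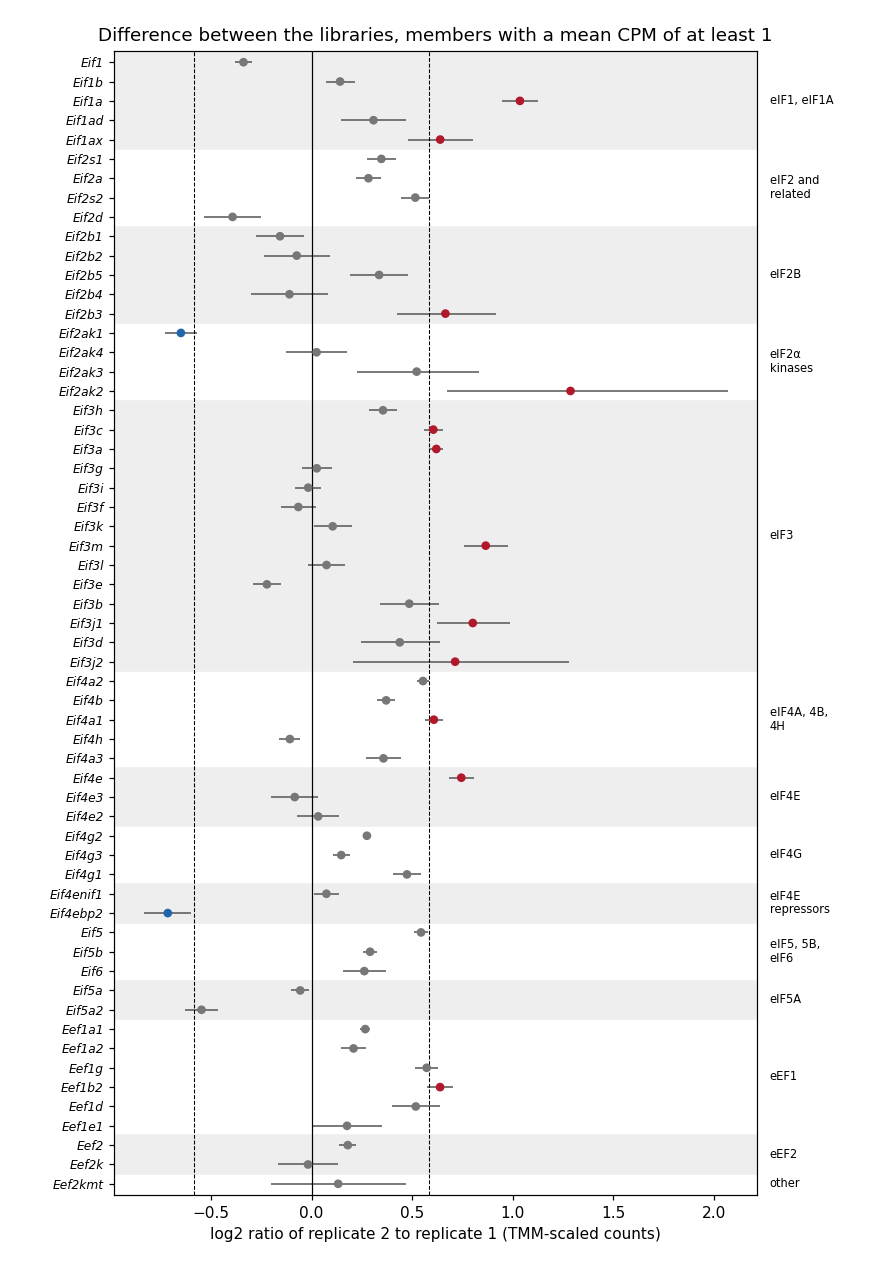
Log2 ratio of replicate 2 to replicate 1 for the 59 members averaging 1 CPM or more, by role; bars are exact 95% counting intervals, dashed lines mark 1.5-fold, and red and blue points lie past it towards replicate 2 and replicate 1. Eif4ebp2 and Eif2ak1 are the blue points, and the red ones with narrow intervals include Eif1a, Eif3m and Eif4e.

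By role, all 6 eEF1 genes had a ratio above 0, with a median of 0.39, as did all 3 eIF4G genes (0.28) and all 3 factors of subunit joining (0.29). For eIF3 it was 11 of 14 (78.6%, median 0.40), with Eif3e at -0.22 the lowest. Beside these stand 74.6% of the 59 members and 49.2% of all genes averaging 1 CPM or more. The eIF3 share is thus near that of the family, and the other groups are small. Both eIF5A genes were below 0, and the eIF2B genes were mixed, with 2 of 5 above 0. In size the ratios differed within a complex. Among the 12 eIF3 subunits without the copies they ran from -0.22 to 0.87.

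Other genes of the translation machinery are given for comparison, with no test. The median log2 ratio was 0.28 for the 59 members, 0.19 for 76 cytosolic ribosomal protein genes, 0.35 for 20 cytosolic aminoacyl-tRNA synthetase genes and -0.07 for 74 mitochondrial ribosomal protein genes. None of the 75 cytosolic ribosomal protein genes averaging 10 CPM or more was 1.5-fold apart. Per kb the members had a median of 17.0 CPM, the cytosolic ribosomal protein genes 44.0 and the synthetases 8.76. Some members are known as TOP messages, whose start is a run of pyrimidines through which mTOR and Larp1 control them. The 11 members listed as such had a median log2 ratio of 0.36, and the 48 other members averaging 1 CPM or more had 0.27.

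That start could be looked up for few of them. Of 48 members with a promoter in the RefSeq table (GRCm38.p6), 2 began with at least 5 pyrimidines at an annotated start, Eef1a1 and Eif3f, or 4.17%, against 5.27% of detected genes. Both are on the TOP list, of which 7 members have a promoter there, so the share within that list was 2 of 7 (28.6%), against 16 of 59 cytosolic ribosomal protein genes (27.1%). For the other 5 listed members this says only that these letters are not at the annotated position. Eif3f shows the run of 11 pyrimidines, in capitals, in the 10 bases before and 20 after its start on chromosome 7, plus strand.
Eif3f: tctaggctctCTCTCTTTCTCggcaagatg

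The stretch from 250 bases before to 50 after each annotated start was searched on both strands for 4 words. CACGTG, the E-box bound by Myc and related factors, was in 12 of 48 members (25%) and in 12% of detected genes. CCGGAAGT, an ETS word, was in 9 (18.8%) and in 9.23%. TATAAA was in 4 (8.33%) and in 8.22%, and TGACGTCA, the cyclic AMP response element, in 1 (2.08%, Eef2) and in 3.85%. None of these words contains another, and a match is not a bound site. The 12 members with an E-box had a median log2 ratio of 0.12 and the 33 without one, all averaging 10 CPM or more, had 0.28. Promoters of an elongation and an initiation factor are shown over the 250 bases before the start, with E-box and TATAAA words in capitals. The window of Eef2 is chr10:81176381-81176630 on the plus strand, and that of Eif4a1 is chr11:69672424-69672673 on the minus strand. The E-box of Eef2 begins 43 bases before the start, and its TATAAA 15 bases before, and the E-box of Eif4a1 begins 189 bases before.
Eef2: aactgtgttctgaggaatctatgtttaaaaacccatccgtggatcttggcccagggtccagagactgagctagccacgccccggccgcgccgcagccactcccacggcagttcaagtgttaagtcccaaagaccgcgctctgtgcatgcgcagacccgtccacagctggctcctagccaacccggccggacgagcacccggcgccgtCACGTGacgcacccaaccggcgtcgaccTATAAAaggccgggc
Eif4a1: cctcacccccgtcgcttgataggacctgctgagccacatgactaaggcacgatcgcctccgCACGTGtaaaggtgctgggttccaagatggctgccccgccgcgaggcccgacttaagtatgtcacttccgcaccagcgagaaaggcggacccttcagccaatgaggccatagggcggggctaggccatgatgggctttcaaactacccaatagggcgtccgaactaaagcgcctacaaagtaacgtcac

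Partners and regulators outside the family were taken from 7 lists with 56 genes found, of which 55 were detected. Of the 46 averaging 10 CPM or more, 6 (13%) were at least 1.5-fold higher in replicate 2, against 9.44% of all genes, and 0 were 1.5-fold lower, against 7.12%. The 3 past 2-fold were Rheb, the GTPase that switches on mTOR (346 CPM in replicate 2 and 160 in replicate 1, log2 ratio 1.20), Cpeb2, a regulator of messages through their tail (52.8 and 25.1 CPM, 1.16), and the diphthamide synthesis gene Dph5 (14.9 and 7.51 CPM, 1.08).

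In each list the genes with the highest and lowest mean CPM were these, not corrected for length. For termination and recycling, Abce1, which splits the subunits, had 151 CPM in replicate 2 and 127 in replicate 1, and Mcts1 18.2 and 16.7. Etf1, a release factor, exceeded Abce1 in replicate 2 at 167 CPM, and Gspt2 lay below Mcts1 in replicate 1 at 16.2 CPM. All 7 genes of that list had log2 ratios above 0, with a median of 0.35, though Denr was at 0.0016 with an interval of -0.10 to 0.11. Of the 55 genes of these lists averaging 1 CPM or more, 69.1% were above 0, against 49.2% of all genes at that level. The poly(A)-binding protein gene Pabpc1 had 355 and 274 CPM, and Paip2b 14.9 and 11.9. In the mTOR and MNK list Rheb led and Mknk2, an eIF4E kinase, was lowest at 9.57 and 7.57 CPM.

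Cyfip2, a partner of FMRP in the complex that represses translation and a subunit of the WAVE actin regulator, had 1649 CPM in replicate 2 and 1740 in replicate 1. It had the highest CPM of any gene in these lists, while Gigyf1 in the same list had 3.15 and 3.70 CPM. Around eIF2, Impact, which restrains GCN2, had 147 and 122 CPM. The stress target Trib3 had 0 counts in replicate 2 and 2 in replicate 1, and Ddit3 had 8.38 and 5.65 CPM. Dph6 led the hypusine and diphthamide list with 86.1 and 97.0 CPM, and Dph2 had 3.73 and 3.39 CPM. Among mitochondrial translation factors Mtif2 had 45.2 and 37.1 CPM, and Tsfm, the lowest by mean though not in replicate 1, 4.71 and 9.84.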

How the data were processed

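RNA of 2 pull-down libraries of 1 group was sequenced and counted, so no contrast between conditions exists. The deposited values are raw counts per gene symbol. STAR 2.0.0e, HTSeq and mm10 are named per the submitters' processing notes, while no source used here gives the annotation, strand setting or read length. Lines that name no gene (the counter's own totals, and unknown, at 0) stayed out, which left 64.9% of the counts in replicate 2 and 65.0% in replicate 1.

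CPM is counts per 1000000 gene counts. Length is the union of exons in GENCODE vM21, in which 23155 symbols were found. Log2 ratios used TMM factors (edgeR 4.0.16) and a prior count of 2, and DESeq2 1.42.0 size factors were an alternative. The calculation was tested on simulated counts. A count of 0 allows up to 3 counts. Intervals and floors cover counting error only, as no molecular identifiers are mentioned.

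The members and lists were chosen with earlier results of these data known. Genes given in full are the highest and lowest per kb in each role, the paralogue sets, the 5 with the largest ratio each way at a mean CPM of at least 10, members under 1 CPM, and in each list the highest and lowest and those 2-fold apart. Dph1 was not found. Other genes named in the text were chosen after their values were seen.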

Additional observations from a re-analysis of the deposited data

Results flagged for a closer look

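Counts outside the gene lines belong to no comparison. Reads with more than 1 alignment took 15.5% of the counts in replicate 2 and 15.7% in replicate 1, above the limit that a count of 0 allows, and they include reads of genes with close copies such as Eef1a1 and Eif4a1. With 2 libraries, outlying samples could not be looked for.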

How the results depend on the processing

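Under other settings 72 values stayed within their allowance, 28 moved and 1 reversed. Allowed were 1 SD between libraries for levels and level ratios, the median half-width of the counting intervals for the median log2 ratio, and 1.5 times for counts. For level ratios, each single library lies within 1 SD of the mean of 2 by arithmetic. Leaving out a library could therefore not move a level ratio, and those values among the 72 are no check. The number of detected members kept to its allowance under every setting, an allowance it could have left only by falling. The family's median, 70.4 CPM over genes' means, was 74.8 without Rn45s and Lars2, 75.6 for members averaging 1 CPM or more, and 63.2 to 67.3 in single libraries. With library totals alone the median log2 ratio was 0.18, with all genes at -0.10, and the count of members higher in replicate 2 was 4, with 6.53% of all genes higher. The members' offset from all genes was 0.28 under both scalings, which shift all genes nearly alike and so could not test it. The ratio of Eef1a2 to Eef1a1 was 0.137 by longest transcript, longest coding or not, 0.159 without length and 0.0536 with unshared 50-mers as length. That of Eif4a2 to Eif4a1 was 2.71, 1.52, 2.31 and 0.597 in the same order of settings, the last below 1 because only unshared sequence counts as length. In that order Eif1b over Eif1, 0.659 by exon union, was 0.451, 0.451, 0.353 and 0.315, and Eif4e2 over Eif4e, 0.275 by exon union, was 0.493, 0.493, 0.343 and 0.463. Without length Eif4e3 was 0.276 times Eif4e, Eif4ebp2 was 104 times Eif4ebp1, Eif4g2 was 11.9 and Eif4g3 2.84 times Eif4g1. The coding-transcript, 50-mer and length-and-GC settings were chosen after the data were seen. No paired analysis was possible because there is 1 group. At 65 counts or fewer in each library, depth limits Eif4ebp1, Eif4ebp3, Eif4e1b and Eif2ak2.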
